A study of Mus musculus with 10 samples.

Results

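The granins were followed as 7 of the 27716 genes shared by all count matrices: *Chga*, *Chgb*, *Scg2*, *Scg3*, *Scg5*, *Vgf* and *Pcsk1n*. They were taken by symbol, and all 7 were found in every matrix. The question was in which order these genes switch on as endocrine cells form in the mouse embryonic pancreas, and which of them fall or stay in alpha-like, beta-like, delta-like and epsilon-like cells.

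Granins are acidic proteins of dense-core secretory granules, the vesicles in which neuroendocrine cells store peptide hormones. Several help to condense hormones and to form granules, and many are cut by prohormone convertases into peptides that are released together with the hormone. *Chga* and *Chgb* encode chromogranins A and B, *Scg2* and *Scg3* encode secretogranins, and *Vgf* encodes a related precursor protein. *Scg5* encodes 7B2, the chaperone of the convertase PC2, and *Pcsk1n* encodes proSAAS, an inhibitor of the convertase PC1. In the pancreas endocrine cells arise from ductal-like epithelium through a brief phase of Ngn3 (*Neurog3*) expression, and most pass through a *Fev*-expressing stage before hormones appear. Lineage tracing of *Fev* in the study labelled only part of the epsilon cells.

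Data were UMI counts per gene and cell (1 UMI marks 1 captured transcript) from droplet libraries of whole pancreata. Swiss Webster libraries of the version 1 kit, sorted for live cells, held 1 pool from E12.5, a pair of pools from E14.5 and 1 pool from E17.5. The labels put 1 of the E14.5 pools in batch 1 and the other version 1 pools, those of E12.5 and E17.5 included, in batch 2, which was collected on another day. Each version 2 pool also had a day of its own, so that collection day is shared between stages only within batch 2. With the version 2 kit each of the 3 days had 1 Swiss Webster pool, depleted of CD140a+ cells by sorting, and the 2 wells loaded with E17.5 cells of the same suspension were summed. A last version 2 library held E14.5 *Fev-Cre; ROSA26mTmG* cells, in which *Fev*-driven Cre switches the membrane reporter from TdTomato to GFP. These mice were kept on a C57BL/6J background. GFP+ cells, those that express or once expressed *Fev*, were sorted and loaded together with TdTomato+/GFP− cells, and the matrix aligned with the reporter sequences was used. Each library was a pool of pancreata, so the 8 libraries are the independent samples, with 2 to 3 Swiss Webster pools per stage. Dissociation lasted 10 min at E12.5, 15 min at E14.5 and 30 min at E17.5, so that stage and dissociation time cannot be told apart. Where a class has 1 library at a stage, stage and pool cannot be told apart either.

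After filtering, 57982 cells remained, with a median of 2952 to 4332 UMIs per cell in version 1 libraries and 7503.5 to 11783 in version 2. Haemoglobin took up 60.9% of UMIs at E17.5 version 1, 31.8% and 31.7% in the E17.5 version 2 wells and 0.0128% in Fev-Cre. Libraries of a kit shared at most 1.79% of the smaller library's cell barcodes. Clustering, with the granins held out, put 9010 cells in endocrine clusters. Of these 5921 were named, 1129 stayed unnamed, 469 lay in clusters led by markers of a non-endocrine class, 237 were cycling and 1254 were doublets. The share named was lowest at E12.5 version 2, 31.9% of 1138 cells with 412 doublets, against 73.0% of 2046 cells with 82 doublets at E17.5 version 2. Levels at E12.5 version 2 thus rest on a smaller part of the endocrine cells. A class is called X-like because its name rests on marker genes fixed for it, and the thresholds of the naming were set after clusters had been seen. Clusters for which Ngn3+ and Fev+ were the leading names, and in which both *Neurog3* and *Fev* reached 25% of their highest level among the clusters made together, are called *Neurog3*/*Fev* cells here. The epsilon-like cluster of E14.5 version 2 and an unnamed cluster of 24 cells there also reached 25% for both genes, but other names led them. At E12.5 too few Fev+-like, beta-like, delta-like and epsilon-like cells were found (12 at most per library) to use. A level needed 20 cells of a class in a library, and is given as CPM, the usual scaling of counts to a common total, which here was the UMIs of all genes other than hormone and haemoglobin genes. Intervals printed with shares cover counting error only.

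The sequences upstream of these genes are shown first, because 5 of the 6 granins with a RefSeq promoter sequence hold TGACG, the core of a cyclic AMP response element, known from chromogranin promoters. Windows ran from 250 bases before to 50 after the RefSeq start on GRCm38.p6, and *Vgf* had none in the table. Each line gives 30 bases 5′ to 3′ on the strand of the gene, with the match in capitals:
Chga, chr12:102554885-102554914, + strand: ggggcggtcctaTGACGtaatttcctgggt
Chgb, chr2:132781559-132781588, + strand: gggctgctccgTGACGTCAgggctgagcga
Scg2, chr1:79440076-79440105, − strand: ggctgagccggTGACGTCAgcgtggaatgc
Scg3, chr9:75684069-75684098, − strand: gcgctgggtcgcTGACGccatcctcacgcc
Scg5, chr2:113829249-113829278, − strand: aaaggaggtaaaTGACGttcataggggtcg
The matches lay 44 bases upstream of the start in *Chga*, 72 in *Chgb*, 68 in *Scg2*, 30 in *Scg3* and 175 in *Scg5*. The stretches of *Chgb* and *Scg2* fall inside a first exon of the GENCODE M21 annotation, which places the start of these genes further upstream. The full palindrome TGACGTCA was found only in *Chgb* and *Scg2* among the 6, and in 1.88% of 27025 promoter windows. TGACG or its reverse CGTCA, which the full motif contains, was found in 21.0% of windows. *Scg5* held 2 further matches downstream of its start, and *Pcsk1n* held none. An E-box CAGATG (reverse CATCTG) was found in 0 of the 6 and in 17.2% of windows, and TATAAA (reverse TTTATA) only in *Chga* and in 14.2% of windows. A match is a run of letters and says nothing of a factor bound there.

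**Figure D1:**
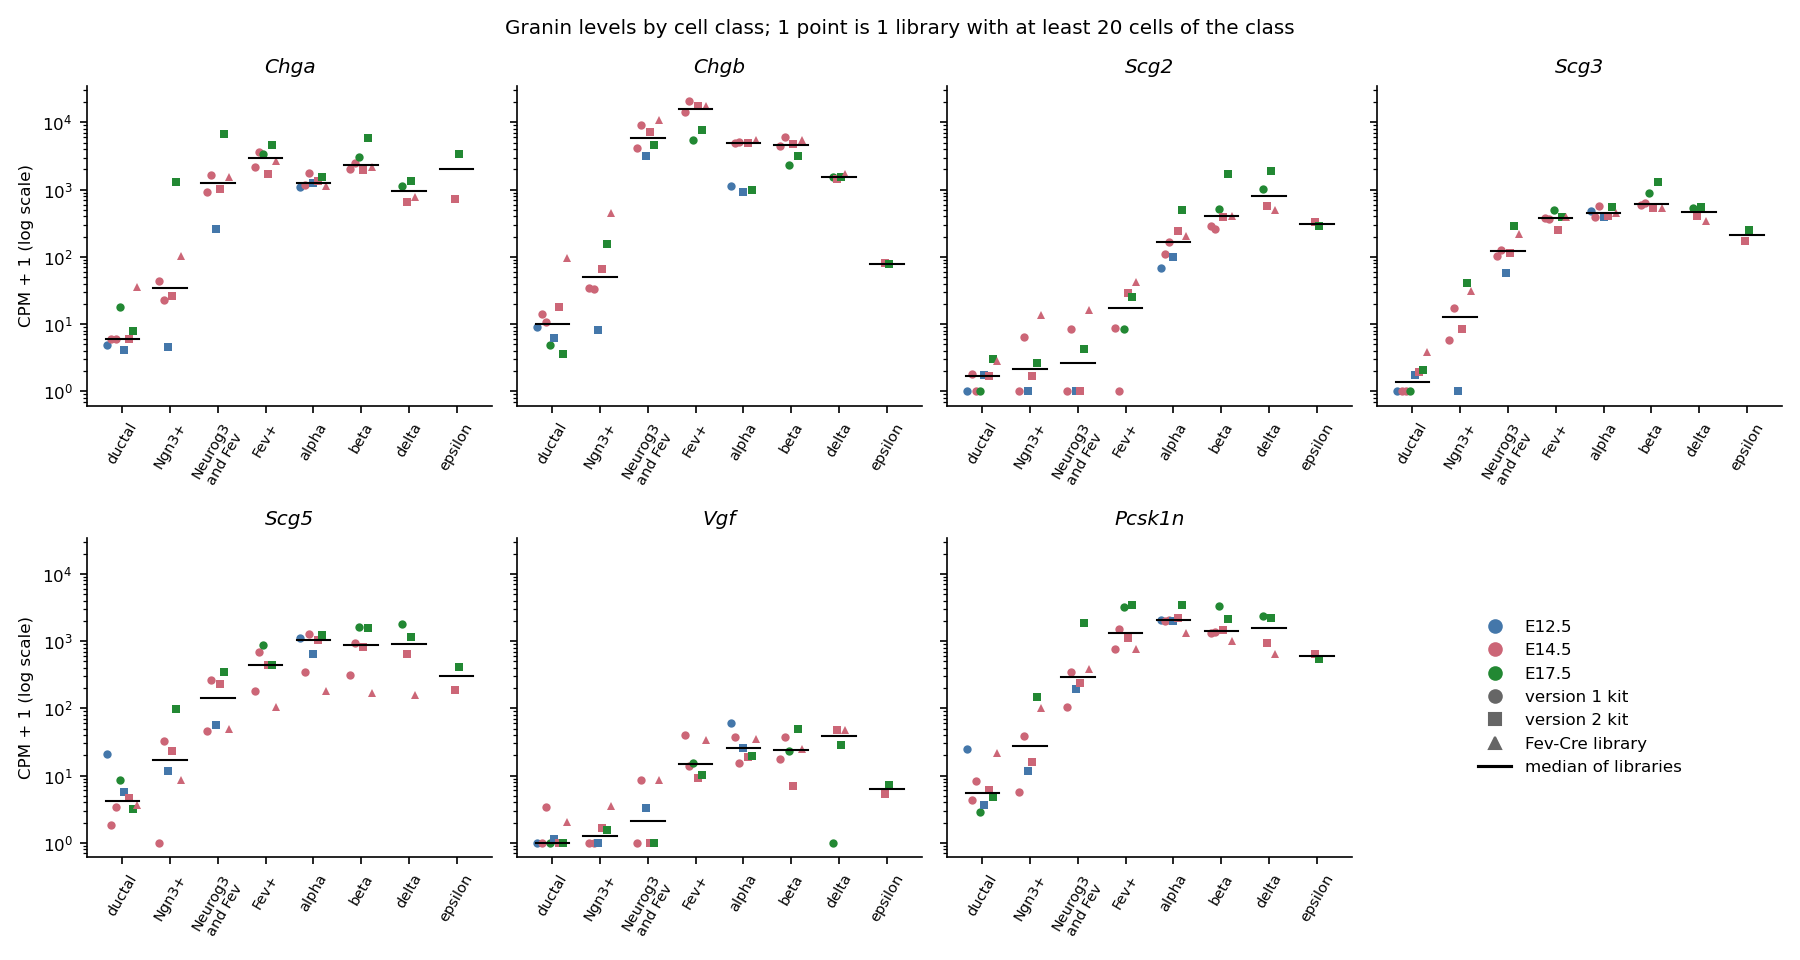
Level of each granin (CPM + 1, log axis) in ductal-like cells and 7 endocrine classes. Each point is a library with at least 20 cells of the class, coloured by stage and shaped by kit or Fev-Cre, the bar is the median of libraries, and the class labels stand for the X-like classes. *Chgb* has its highest median in Fev+-like cells, while *Scg2* is at 41.9 CPM or less there and at 68.1 CPM or more in every hormone class.

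In Ngn3+-like cells, the first endocrine step, granin levels were low in most libraries. *Chga* was at 3.58 CPM at E12.5 (version 2), at 42.4 and 21.4 CPM in the E14.5 version 1 batches, at 25.2 CPM at E14.5 version 2, at 101 CPM in Fev-Cre and at 1296 CPM at E17.5 version 2. The E17.5 library stood apart from the others, at 101 CPM or less. *Chgb* was at 7.16, 33.0, 32.2, 64.7, 446 and 151 CPM in the same order. The version 1 groups under 20 cells gave *Chga* at 101 CPM and *Chgb* at 435 CPM at E12.5 (14 cells, 7 and 30 UMIs), and 301 and 271 CPM at E17.5 (10 cells, 10 and 9 UMIs). The 2 libraries of E12.5 thus lay far apart, and neither E12.5 nor E17.5 has a second library of at least 20 cells to set beside the first. The highest of the counted *Chgb* values, in Fev-Cre, came with 96.4 CPM in ductal-like and 108 CPM in mesenchymal-like cells of that library, which reached at most 17.1 and 73.1 CPM elsewhere. *Pcsk1n* was at 4.71 to 147 CPM, and *Scg2*, *Scg3*, *Scg5* and *Vgf* were at 97.7 CPM or less in all 6 libraries.

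Against ductal-like cells of the same libraries, 3 of 7 granins had counts enough to test and all 3 were higher in Ngn3+-like cells, where 23.1% of the 8523 genes tested were called, 10.3% higher and 12.8% lower. A gene could pass the low-count filter through 1 class alone. Ductal-like medians were 4.99 (*Chga*), 8.87 (*Chgb*) and 4.47 CPM (*Pcsk1n*), so a lower outcome was hardly open to these 3. Called means an adjusted p under 0.05 by edgeR's quasi-likelihood test with library as a block and a change of at least 2-fold. *Chga* was higher by 3.39 ± 0.86 on the log2 scale (SE, 6 libraries, adjusted p = 0.00557), *Pcsk1n* by 2.85 ± 0.49 (adjusted p = 0.000377) and *Chgb* by 2.64 ± 0.51 (adjusted p = 0.000924). The per-library differences of *Chga* ran from 0.06 to 6.28 on the log2 scale after 10 CPM was added to both levels. Without E17.5 version 2, the library with the most *Chga*, the difference of *Chga* was 1.90. Without Fev-Cre, *Chgb* was the only granin that passed the filter on low counts, and it was still called.

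Shares of cells bear on whether these low levels are expression, because free RNA gives all cells some UMIs. After each version 2 cell was thinned to 3000 UMIs, *Chga* was found in 0.990% of Ngn3+-like cells from E12.5, in 6.42% of those from E14.5 and in 37.4% of those from E17.5. The exact binomial 95% interval of the last was 31.2% to 44.0%. Mesenchymal-like cells, which should lack the gene, had it in 0.564%, 1.76% and 3.18% of cells, at median depths of 6117, 4964.5 and 10261 UMIs against 5079, 4319 and 7658 UMIs in Ngn3+-like cells. Unthinned, the Ngn3+-like shares were 1.98%, 7.34% and 43.8%. *Chgb* was found in 2.97%, 7.34% and 6.38% of Ngn3+-like cells, against 1.80%, 4.31% and 1.47% of mesenchymal-like cells. In Fev-Cre it was found in 30.6% of Ngn3+-like and 25.8% of mesenchymal-like cells, and the interval of the first, 22.1% to 40.2%, holds the second.

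The 3 Ngn3+-like clusters at E17.5 version 2 showed where the *Chga* UMIs lay. The cluster of 72 cells had *Chga* at 8.95 CPM, the cluster of 85 cells at 601 CPM and the cluster of 78 cells at 3894 CPM. The first 2 of these had no *Fev* UMI and the third had *Fev* at 73.3 CPM, and *Chgb* was at 1.49, 10.8 and 531 CPM. At E14.5 version 2 the Ngn3+-like cluster with the most *Fev*, 92 cells at 35.8 CPM, had *Chga* at 74.3 and *Chgb* at 218 CPM. These clusters were singled out after their values were seen, and they are given without a test.

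*Neurog3*/*Fev* cells carried far more of both chromogranin transcripts than Ngn3+-like cells. *Chga* was at 261 CPM at E12.5 version 2, between 911 and 1629 CPM in the 4 libraries of E14.5 and at 6780 CPM at E17.5 version 2. *Chgb* was at 3133 CPM at E12.5, between 4099 and 10755 CPM at E14.5 and at 4596 CPM at E17.5. Both genes were higher than in Ngn3+-like cells in 6 of 6 libraries, by a median of 4.23 for *Chga* and 6.59 for *Chgb* on the log2 scale.

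The ratio of *Chga* to *Chgb* UMIs in these cells differed by stage. It was 0.0835 at E12.5 version 2, 0.141 to 0.222 at E14.5 and 1.48 at E17.5 version 2. The smaller version 1 groups gave 0.0327 at E12.5 (12 cells) and 8.05 at E17.5 (13 cells). In Fev+-like cells the ratio was 0.0988 to 0.174 at E14.5 and 0.614 and 0.597 in the E17.5 libraries. The E17.5 values lay above all earlier ones in both classes, and this was noticed after the values were seen and not tested.

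Fev+-like cells were the class with the highest *Chgb*. *Chgb* was at 14358, 21119, 17371 and 17334 CPM in the E14.5 libraries (version 1 batches 1 and 2, version 2, Fev-Cre), and at 5460 and 7761 CPM in the E17.5 libraries (version 1, version 2). *Chga* in the same order was at 2170, 3671, 1717 and 2630 CPM at E14.5 and at 3350 and 4633 CPM at E17.5. *Pcsk1n* was at 752 to 1519 CPM at E14.5 and at 3197 and 3462 CPM at E17.5.

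Relative to Ngn3+-like cells of the same 5 libraries, all 5 granins that could be tested were higher in Fev+-like cells, where 16.9% of the 5752 genes tested were called, 8.15% higher and 8.73% lower. A gene could pass the low-count filter through 1 class alone. The 5 had medians of 11.8 (*Scg3*) to 48.8 CPM (*Chgb*) in Ngn3+-like cells, so a lower outcome was hardly open to them. *Chgb* was higher by 6.78 ± 0.50 on the log2 scale (SE, edgeR adjusted p = 1.77e-07), from a mean of 146 to 15589 CPM. *Chga* was higher by 4.49 ± 0.55 (adjusted p = 1.81e-05) and *Pcsk1n* by 4.44 ± 0.36 (adjusted p = 3.85e-07). *Scg3* and *Scg5* were higher by 3.73 ± 0.24 (adjusted p = 5.87e-08) and 3.13 ± 0.32 (adjusted p = 3.65e-06). All 5 calls were made whichever library was left out. *Scg2* and *Vgf* did not pass the filter on low counts, at a mean of 20.5 and 20.3 CPM in Fev+-like cells.

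The genes that cut and pack granins were read beside them from lists of 8 processing enzymes, 21 granule and exocytosis genes and 9 regulators. Between Ngn3+-like and Fev+-like cells, 4 of 5 processing genes tested rose and 0 fell. Over all 5752 genes tested there, 8.15% were called higher and 8.73% lower. The same low-count filter applied to the lists. The convertase gene *Pcsk2* was higher by 4.34 ± 0.43 on the log2 scale, *Pcsk1* by 2.04 ± 0.18 and *Pam*, the amidating enzyme, by 4.78 ± 0.29 (edgeR adjusted p = 2.56e-06, 7.82e-07 and 3.76e-08). Of 12 granule genes tested 7 rose and 0 fell, among them *Stx1a*, a fusion protein of the plasma membrane, by 3.82 ± 0.37. Of 8 regulators tested 4 rose and 2 fell. *Pax6* was higher by 4.27 ± 0.18 (adjusted p = 3.39e-09), while *Insm1* fell by 1.40 ± 0.15 (adjusted p = 4.47e-06). A step earlier, against ductal-like cells, *Rest*, a repressor of neuronal and endocrine genes, fell by 4.08 ± 0.29 on the log2 scale in Ngn3+-like cells (adjusted p = 2.73e-07), from a mean of 105 to 10.1 CPM. Of the processing genes *Cpe*, which encodes carboxypeptidase E, rose by 3.18 ± 0.28 at that step (adjusted p = 1.79e-06), and the granule gene *Syt13* rose by 6.45 ± 0.28 (adjusted p = 3.97e-09). *Neurod1* and *Insm1* rose there by 7.53 ± 0.40 and 6.96 ± 0.48 (adjusted p = 2.45e-08 and 2.11e-07).

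Within the Fev+-like class, cells without a UMI of *Neurog3* or *Pax4* were compared with cells that had one. Whether a cell has such a UMI also depends on its depth, and the part of depth was not tested. None of 5 granins tested by edgeR was called, beside 0.115% of the 2612 genes tested. An unadjusted p under 0.05 was found for 2 and DESeq2 called 0, and neither share was taken over all genes. *Chga* differed by 0.23 ± 0.08 on the log2 scale (adjusted p = 0.549) and *Scg3* by 0.36 ± 0.12 (adjusted p = 0.422).

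Cells were also ordered along diffusion pseudotime in each library, with the granins held out of the ordering, to place the onset of each gene. Position 0 is the median Ngn3+-like cell, 1 the median Fev+-like cell and 2 the median hormone cell, and onset is the first position at which a gene reached 50% of its highest window. On the path to alpha-like cells the median onset over 5 libraries was 0.457 for *Chga* (0.226 to 0.817), 0.566 for *Chgb* (0.389 to 0.789), 0.886 for *Scg3* (0.590 to 0.943), 0.980 for *Pcsk1n* (0.583 to 1.18) and 1.13 for *Scg5* (0.609 to 1.38). *Fev* itself was at 0.393 (0.165 to 0.535). *Scg2*, placed in 3 libraries only, came last at 1.44 (0.688 to 1.48). Within a library *Chga* came before *Chgb* on this path in the 4 Swiss Webster libraries and after it in Fev-Cre (0.817 against 0.735). This order is given without a test. At 25% of the highest window the median of *Scg3* (0.367) lay between those of *Chga* (0.347) and *Chgb* (0.384).

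On the path to beta-like cells the median onsets were 0.559 for *Chga*, 0.598 for *Chgb*, 0.689 for *Pcsk1n*, 0.854 for *Scg5*, 0.935 for *Scg3* and 1.94 for *Scg2* (0.478 to 2.00), with *Fev* at 0.321. *Chga* came before *Chgb* in 3 of 5 libraries on this path, after it in Fev-Cre (0.783 against 0.711) and at nearly the same position in E14.5 version 1 batch 1 (0.805 against 0.804). With 30 neighbours in place of 15 it came first in the 4 Swiss Webster libraries and second in Fev-Cre on both paths. *Vgf* was placed in 2 libraries, at a median of 0.905. *Scg2* thus came latest in the medians of both paths, although its earliest library lay before the median Fev+-like cell. At E17.5 version 2 on the path to alpha-like cells, *Chga* (0.226) came before *Fev* (0.393) and *Chgb* (0.535). By the end of the path *Chgb* was back at a median of 25.3% of its highest window in alpha-like and 17.6% in beta-like cells, and *Chga* at 42.4% and 64.7%. *Pcsk1n* was at 90.9% and 83.2%, and *Scg5* at 95.6% and 94.6%. Libraries differed in this on both paths. On the path to alpha-like cells *Chga* ended at 21.8% to 82.4% and *Chgb* at 9.81% to 37.2% of the highest window. On the path to beta-like cells, at E17.5 version 2 *Scg5* ended at 50.4%, *Scg3* at 58.3% and *Scg2* at 47.8% of their highest window, beside *Chgb* at 40.9% and *Chga* at 38.4%, and *Pcsk1n* ended at its highest window. The ordering is a description, and neighbouring cells in it share a library and depth.

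**Figure D2:**
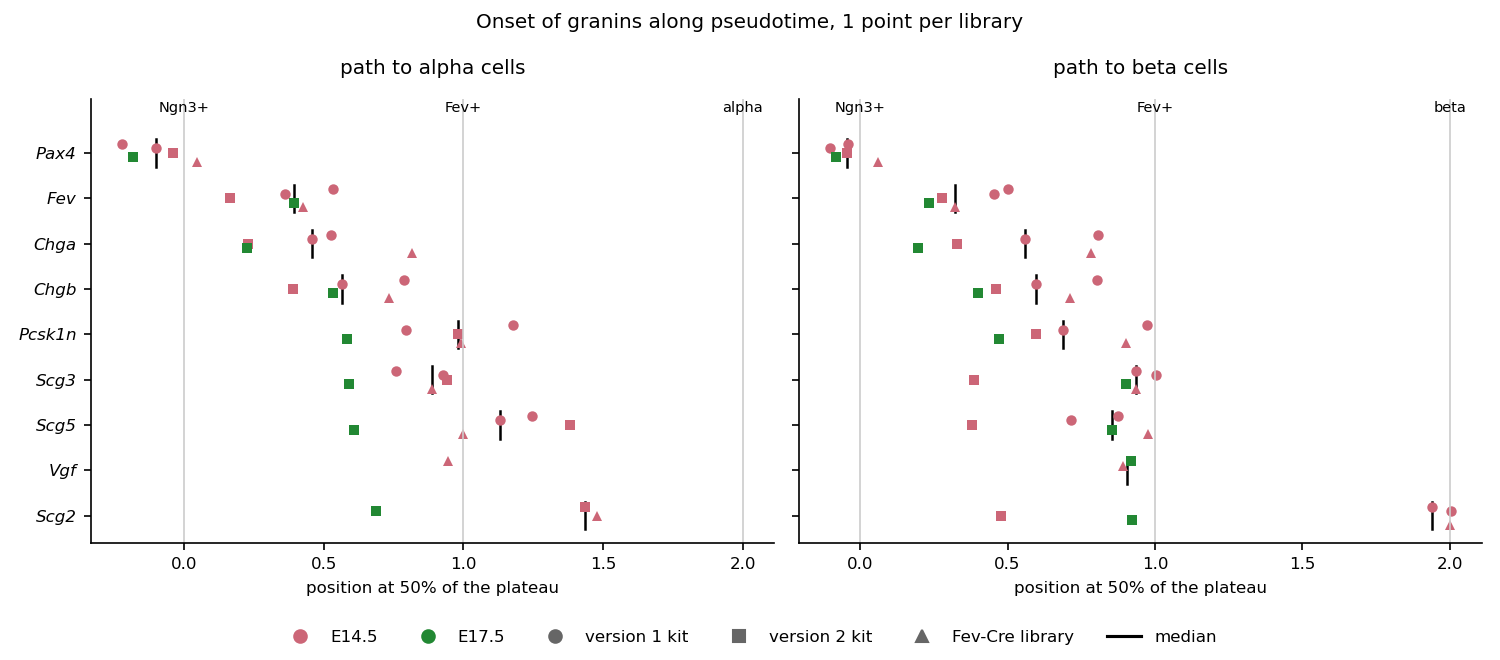
Position along pseudotime at which each gene first reached 50% of its highest window, on the paths to alpha-like and beta-like cells. Each point is a library, coloured by stage and shaped by kit or Fev-Cre, and the black bar is the median over libraries, with 0, 1 and 2 the median Ngn3+-like, Fev+-like and hormone cell. The ranges of *Chga* and *Chgb* over libraries overlap on both paths, and *Scg2* has the latest median on both paths.

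From Fev+-like to alpha-like cells, *Chgb* was lower and *Scg2* and *Scg5* were higher, which makes 3 of 6 granins tested against 6.71% of the 6035 genes tested (3.93% higher, 2.78% lower). *Chgb* was at 4878, 5017, 5001 and 5503 CPM in alpha-like cells of the E14.5 libraries, in the order above, and at 975 CPM at E17.5 version 2. Each of these was below the Fev+-like value of its own library, and the change was −1.94 ± 0.16 on the log2 scale (SE, edgeR adjusted p = 2.65e-07). *Scg2* was at 111, 163, 245, 204 and 504 CPM, and was higher by 3.17 ± 0.28 (adjusted p = 5.05e-07). In Fev+-like cells it had a median of 16.1 CPM and at most 41.9 CPM, and could pass the low-count filter through the hormone class alone. A lower outcome was thus hardly open to *Scg2*, here and in the beta-like, delta-like and epsilon-like comparisons below. *Scg5* was higher by 1.18 ± 0.12 (adjusted p = 1.98e-06). *Chga* was lower in 5 of 5 libraries, at 1169, 1778, 1357, 1132 and 1524 CPM, but its change of −0.96 ± 0.14 (adjusted p = 7.04e-05) was short of 2-fold. Without E14.5 version 1 batch 1 or E14.5 version 2 it was past 2-fold, and was called. *Pcsk1n* and *Scg3* differed by 0.77 ± 0.14 and 0.50 ± 0.11 (adjusted p = 0.000823 and 0.00245), also short of it.

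In beta-like cells *Chgb* was again lower than in Fev+-like cells, while *Scg2*, *Scg3* and *Scg5* were higher, 4 of 6 granins tested against 8.1% of the 5108 genes tested (5.15% higher, 2.96% lower). *Chgb* was at 4515, 6023, 4753 and 5414 CPM at E14.5 and at 2331 (version 1) and 3158 CPM (version 2) at E17.5, a change of −1.51 ± 0.12 on the log2 scale (edgeR adjusted p = 1.19e-06). *Chga* was at 2039, 2510, 1966 and 2148 CPM at E14.5 and at 3102 and 5895 CPM at E17.5, and differed from Fev+-like cells by −0.00 ± 0.13 (adjusted p = 0.996), lower in 4 and higher in 2 of 6 libraries. With hormone and haemoglobin genes kept in the total, which were 46.2% of UMIs at E17.5 version 2, *Chga* was at 3174 CPM there, at 2426 CPM at E17.5 version 1 and at 1672 to 2341 CPM at E14.5. *Scg2* was at 290, 256, 393 and 402 CPM at E14.5 and at 516 and 1713 CPM at E17.5, higher by 4.55 ± 0.37 (adjusted p = 1.29e-06). *Scg3* and *Scg5* were each higher by 1.04 (SE 0.16 and 0.17, adjusted p = 0.000293 and 0.000310). Both of these fell short of 2-fold without the E17.5 version 2 library, at 0.78 and 0.79.

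Delta-like cells had the lowest *Chga* of the hormone classes with at least 20 cells in each of 4 libraries. *Chga* was at 660 CPM at E14.5 version 2, 787 CPM in Fev-Cre, and 1142 and 1335 CPM at E17.5 version 1 and version 2. At E17.5 version 1 beta-like cells were the only other class of that size, and 17 alpha-like cells there had *Chga* at 908 CPM, below the delta-like value. Against Fev+-like cells 4 of 6 granins tested were called, against 6.73% of the 4205 genes tested (4.68% higher, 2.05% lower). *Chga* was at −1.55 ± 0.13 and *Chgb* at −2.71 ± 0.25 on the log2 scale (edgeR adjusted p = 1.41e-07 and 3.63e-07). *Scg2* was higher by 4.74 ± 0.33 (adjusted p = 1.97e-08), with 567, 495, 1011 and 1873 CPM in the same order. *Scg5* was higher by 1.04 ± 0.15 (adjusted p = 7.62e-05), and at 0.83 to 0.99 when either E17.5 library was left out.

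Epsilon-like cells, the ghrelin class, reached 20 cells in 2 libraries only, with 1 cluster in each. P-values of edgeR tests on them thus hold little measured spread between pools. *Chgb* was at 81.0 CPM at E14.5 version 2 (19 UMIs over 51 cells) and at 76.0 CPM at E17.5 version 2 (24 UMIs over 38 cells). *Chga* was at 716 and 3331 CPM in the same libraries. Mesenchymal-like cells of these libraries had *Chgb* at 73.1 and 16.3 CPM and *Chga* at 14.1 and 14.3 CPM. Neural and glial cells had *Chgb* at 137 and 166 CPM. After thinning, *Chgb* was found in 19.6% and 18.4% of epsilon-like cells against 4.31% and 1.47% of mesenchymal-like cells, at median depths of 4485 and 8782.5 against 4964.5 and 10261 UMIs, and *Chga* in 70.6% and 97.4%. Unthinned, the *Chgb* shares were 27.5% and 42.1%.

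Some clusters rich in ghrelin but not named epsilon-like held more *Chgb*. The named clusters of these 2 libraries had *Ghrl* at 47645 and 85625 CPM, *Gcg* at 29.8 and 50.7 CPM, and *Neurog3* at 929 and 1719 CPM. An unnamed cluster of 38 cells at E14.5 version 2 had *Ghrl* at 47198 CPM, with *Gcg* at 24516, *Neurog3* at 0 and *Chgb* at 1018 CPM. In Fev-Cre an unnamed cluster of 43 cells had *Ghrl* at 27966, *Gcg* at 15597 and *Chgb* at 952 CPM. At E17.5 version 2 a cluster of 92 cells that was named alpha-like had *Ghrl* at 51430, *Gcg* at 59311 and *Chgb* at 392 CPM. All 3 of these also held far more *Gcg* than the named epsilon-like clusters.

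Against Fev+-like cells 3 of 6 granins tested were called in epsilon-like cells, against 9.4% of the 4466 genes tested (5.11% higher, 4.3% lower). Since only part of the epsilon cells trace to *Fev*, differences here and below compare 2 classes and need not be steps of a path. *Chgb* was at −7.19 ± 0.25 on the log2 scale (edgeR adjusted p = 1.83e-40), *Pcsk1n* at −1.80 ± 0.20 (adjusted p = 8.56e-12) and *Scg2* at 3.53 ± 0.28 (adjusted p = 2.39e-18). *Scg3* (−0.60 ± 0.19) and *Scg5* (−0.50 ± 0.18) had adjusted p = 0.0189 and 0.0470 but less than 2-fold change. *Pcsk1n* was at 648 against 1114 CPM at E14.5 version 2, less than 2-fold lower, and at 545 against 3462 CPM at E17.5 version 2, so its call rests on the E17.5 library. DESeq2 did not call *Pcsk1n* (adjusted p = 0.673). The smaller epsilon-like groups had *Chgb* at 353 CPM in E14.5 version 1 batch 1 (17 cells, 18 UMIs), 59.1 CPM in batch 2 (14 cells, 3 UMIs), 93.0 CPM at E17.5 version 1 (10 cells, 3 UMIs) and 199 CPM at E12.5 version 2 (8 cells, 9 UMIs).

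**Figure D3:**
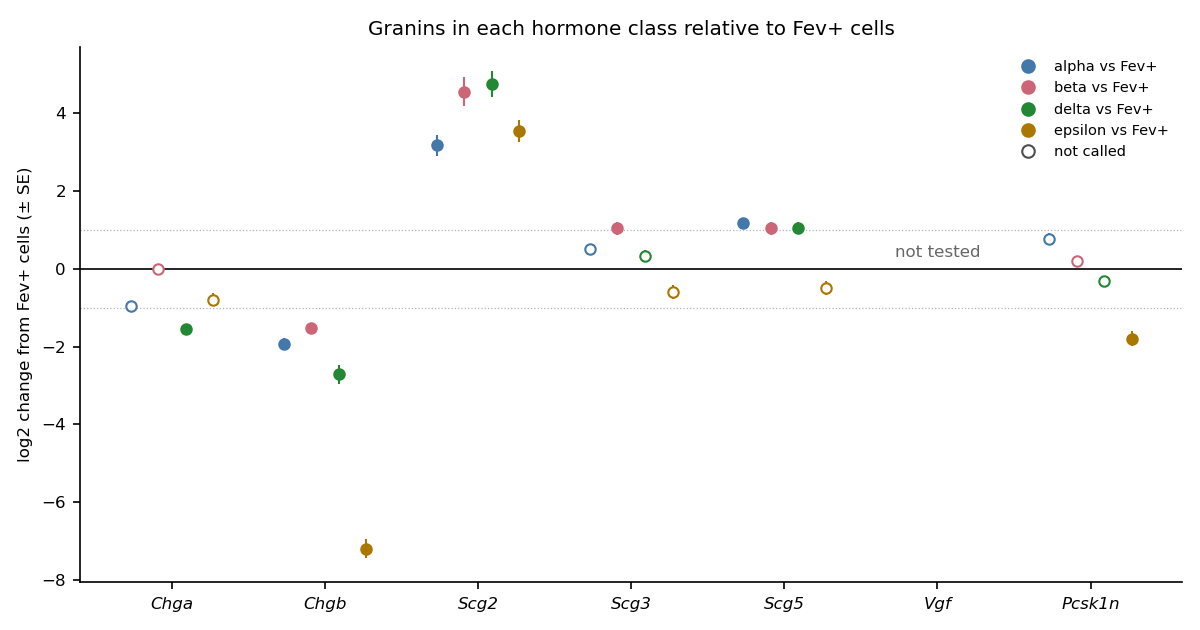
Difference of each granin between each hormone class and Fev+-like cells on the log2 scale, with standard errors from edgeR, and class labels standing for the X-like classes. Filled markers passed the call rule. *Chgb* is lower in all 4 classes, *Scg2*, at 41.9 CPM or less in Fev+-like cells, is higher in all 4, and *Chga* is at −0.00 in beta-like cells.

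The convertases differed between the same classes. *Pcsk2* had a median of 529 CPM in Fev+-like cells, 1164 in alpha-like, 1449 in beta-like and 1714 in delta-like cells, but 44.0 CPM over the 2 epsilon-like sums. Against Fev+-like cells it rose by 1.60 ± 0.14, 1.72 ± 0.13 and 1.77 ± 0.15 on the log2 scale in alpha-like, beta-like and delta-like cells (edgeR adjusted p = 5.58e-07, 8.09e-07 and 1.37e-07). In epsilon-like cells it was lower by 3.81 ± 0.26 (adjusted p = 1.07e-21). *Pcsk1* rose in beta-like cells, by 1.06 ± 0.18 (adjusted p = 0.000498), and differed without a call by −0.84 ± 0.21 in alpha-like cells, 0.21 ± 0.14 in delta-like and 0.36 ± 0.22 in epsilon-like cells (adjusted p = 0.00764, 0.368 and 0.330). *Slc30a8*, the zinc transporter of insulin granules, rose by 3.01 ± 0.27 in alpha-like and 3.91 ± 0.20 in beta-like cells. *Sytl4*, which encodes the granule protein granuphilin, rose by 4.66 ± 0.21 in beta-like cells, from a mean of 13.6 to 247 CPM. *Ptprn*, a membrane protein of dense-core granules, rose by 1.68 ± 0.24 in alpha-like and 1.99 ± 0.27 in delta-like cells. Of the regulators, *Rfx6*, a factor of islet development, fell by 1.32 ± 0.18 and 1.01 ± 0.16 in alpha-like and beta-like cells. *Isl1* rose by 1.24 ± 0.14 in alpha-like, 1.74 ± 0.12 in delta-like and 2.38 ± 0.16 in epsilon-like cells. In delta-like cells *Neurod1* and *Nkx2-2* fell by 2.30 ± 0.21 and 1.89 ± 0.17 (adjusted p = 3.62e-07 and 2.82e-07). In epsilon-like cells *Pax6* was lower by 1.44 ± 0.17 and *Syt13* by 1.37 ± 0.22 (adjusted p = 1.27e-10 and 6.28e-07).

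Between 1 and 3 granule genes were called between Fev+-like cells and each hormone class. Of 16 granule genes tested between alpha-like and Fev+-like cells 2 rose and 0 fell, of 17 in beta-like cells 3 rose and 0 fell, of 13 in delta-like cells 1 rose and 0 fell, and of 13 in epsilon-like cells 1 rose and 2 fell. Over all genes tested, 6.71%, 8.1%, 6.73% and 9.4% were called in the same comparisons. The medians of the granule list were −0.12, 0.09, 0.12 and −0.13 on the log2 scale, beside 0.01, −0.01, −0.01 and 0.00 over all genes. For the granins the medians were 0.63, 0.62, 0.01 and −0.70.

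Hormone classes were also compared directly within libraries. Between beta-like and alpha-like cells 1 of 7 granins was called, *Scg2*, higher in beta-like cells by 1.14 ± 0.16 on the log2 scale (5 libraries, edgeR adjusted p = 0.000287), against 6.83% of the 8978 genes tested (3.54% higher, 3.29% lower). Without E17.5 version 2 its difference was 0.86 and with count splitting 0.91, both short of 2-fold, and without the library block it was 1.39 with adjusted p = 0.288. *Chga* was higher in beta-like cells in 5 of 5 libraries by 0.97 ± 0.18 (adjusted p = 0.00200), short of 2-fold. It was called, at 1.02 to 1.09, when any Swiss Webster E14.5 library was left out. *Pcsk1n* was lower in 5 of 5, at −0.54 ± 0.07 (adjusted p = 0.000219). *Chgb* differed by 0.36 ± 0.22 (adjusted p = 0.294) and was higher in 2 and lower in 3 of 5 libraries. In the same comparison *Pcsk1* was higher in beta-like cells by 1.78 ± 0.29 (adjusted p = 0.000793), while *Pcsk2* differed by 0.10 ± 0.08 (adjusted p = 0.420).

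Between delta-like and alpha-like cells *Scg2* was again the only granin called of 7, higher by 1.49 ± 0.14 (3 libraries, edgeR adjusted p = 1.15e-06), against 5.5% of the 8661 genes tested (2.86% higher, 2.63% lower). *Chgb* differed by −0.97 ± 0.32 (adjusted p = 0.0648), with libraries in opposite directions. In delta-like cells it was at 1420 CPM at E14.5 version 2 and 1701 CPM in Fev-Cre, below alpha-like cells of those libraries (5001 and 5503 CPM), and at 1532 CPM at E17.5 version 2, above the 975 CPM of alpha-like cells. *Pcsk1n* differed by −0.97 ± 0.13 (adjusted p = 6.17e-05). Without E17.5 version 2 both were called, at −1.75 and −1.12. Between delta-like and beta-like cells 2 of 7 were called, both lower in delta-like cells, against 7.58% of the 7437 genes tested (3.98% higher, 3.6% lower). *Chga* was at −1.69 ± 0.15 and *Chgb* at −1.30 ± 0.17 (4 libraries, adjusted p = 2.03e-06 and 8.98e-05), each lower in 4 of 4 libraries.

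Epsilon-like and alpha-like cells differed in 4 of 7 granins, all lower in epsilon-like cells, against 12% of the 6979 genes tested (5.14% higher, 6.82% lower). *Chgb* was at −4.92 ± 0.34 on the log2 scale, *Pcsk1n* at −2.27 ± 0.28, *Scg5* at −2.02 ± 0.23 and *Scg3* at −1.24 ± 0.20 (2 libraries, edgeR adjusted p = 8.70e-45, 1.66e-14, 3.91e-17 and 3.60e-08). With doublets kept the *Chgb* difference was −2.34 (adjusted p = 0.152). *Chga* differed by 0.11 ± 0.26 (adjusted p = 0.832), lower at E14.5 and higher at E17.5. *Pcsk2* was at −5.52 ± 0.34 and *Pcsk1* at 1.11 ± 0.22 (adjusted p = 1.34e-56 and 5.33e-06).

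**Figure D4:**
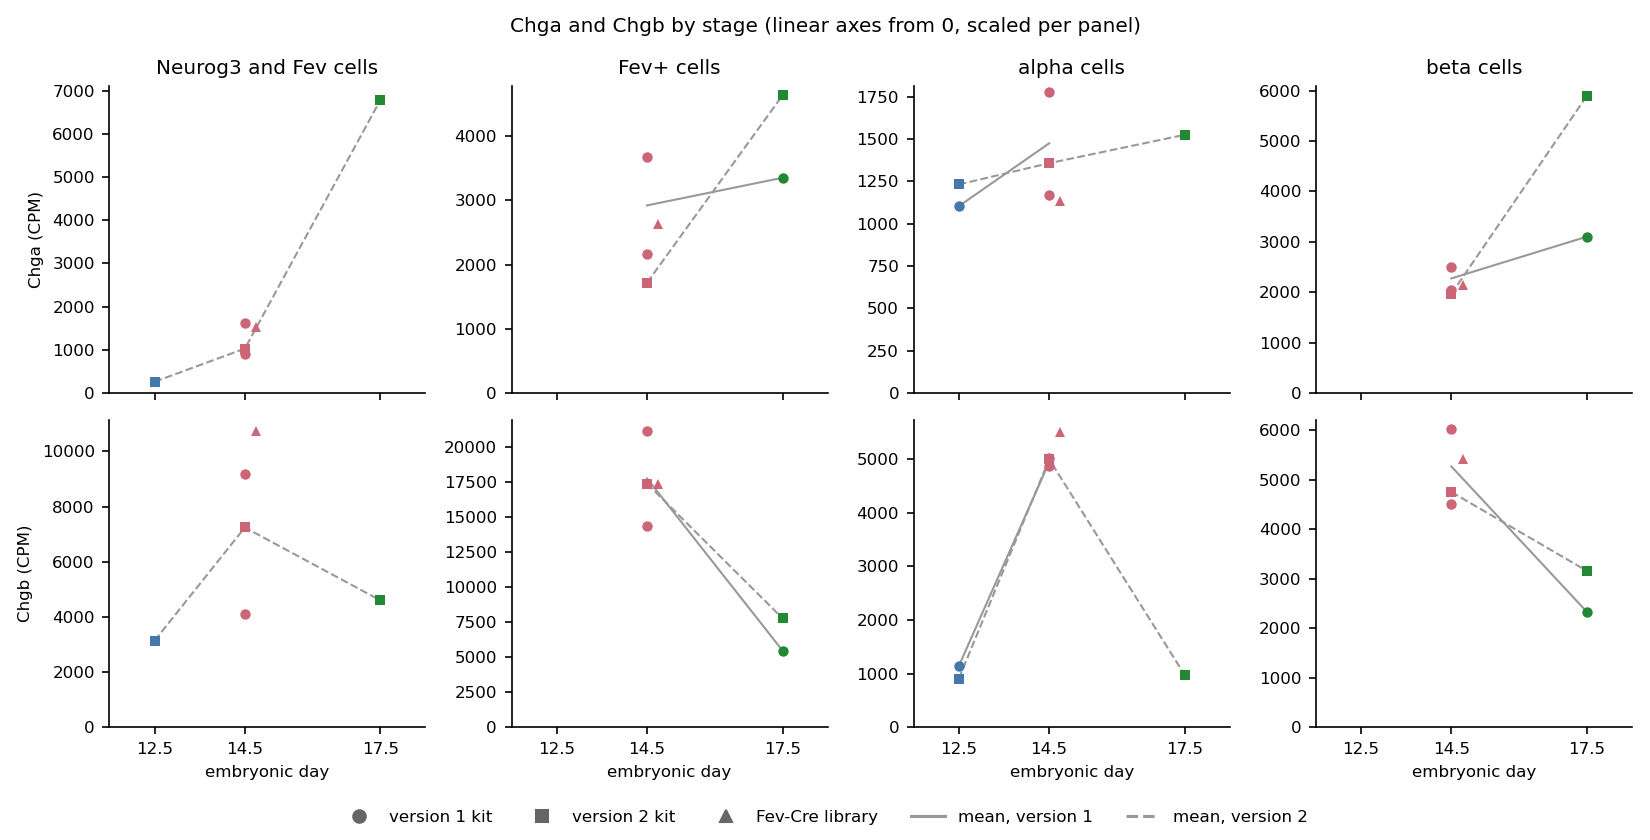
*Chga* and *Chgb* levels (CPM, linear axes from 0, scaled per panel) by embryonic day in 4 classes, standing for the X-like classes. Each point is a library with at least 20 cells, coloured by stage and shaped by kit or Fev-Cre. Lines join the means of each kit. *Chgb* in alpha-like cells is at 1142 CPM or less at E12.5, between 4878 and 5503 at E14.5 and at 975 at E17.5, while *Chga* there lies between 1103 and 1778 CPM. The E14.5 class includes clusters low in *Gcg* and high in *Chgb* (7494 to 10780 CPM). Clusters low in *Gcg* at E12.5 version 2 (*Chgb* at 10848 CPM) and E17.5 version 2 (*Chgb* at 3367 CPM, with more insulin than *Gcg*) stayed unnamed. They are not in these points.

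*Chgb* in the alpha-like class was higher at E14.5 than at E12.5 or E17.5, but the clusters that made up the class differed between stages. It was at 1142 and 905 CPM at E12.5 (version 1, version 2), at 4878, 5017 and 5001 CPM in the Swiss Webster libraries at E14.5 and at 975 CPM at E17.5 version 2. With kit as a term, the change from E12.5 to E14.5 was 2.18 ± 0.39 on the log2 scale (edgeR adjusted p = 0.000158). That from E14.5 to E17.5, with 1 library at E17.5, was −2.22 ± 0.55 and passed the call rule. Within version 2 alone, 1 library a stage, the differences were 2.45 and −2.35. Without E14.5 version 1 batch 1 the changes were 2.26 and −2.27, both still called. Without the kit term they were 2.16 and −2.12 and neither was called (adjusted p = 0.0536 and 0.407). The E17.5 side of this test is 1 library, so no spread between E17.5 pools enters it. Without E14.5 version 2 the change from E14.5 to E17.5 was −1.91 and was not called. The 17 alpha-like cells at E17.5 version 1 had *Chgb* at 370 CPM.

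The E14.5 class joined clusters low and high in *Gcg*. In each E14.5 library 1 alpha-like cluster had *Gcg* at 3140 to 9911 CPM and *Chgb* at 7494 to 10780 CPM. Clusters as low in *Gcg* at E12.5 version 2 (77 cells, *Gcg* at 5818 and *Chgb* at 10848 CPM) and E17.5 version 2 (70 cells, *Gcg* at 9335 and *Chgb* at 3367 CPM) stayed unnamed and so were outside the class. The E17.5 cluster held more insulin (*Ins1* and *Ins2* at 16501 CPM) than *Gcg*, and less *Chgb* than the E14.5 clusters low in *Gcg*. Among alpha-like clusters with *Gcg* at 54906 CPM or more, *Chgb* was at 542 to 1223 CPM at E12.5, at 2394 to 3319 CPM in the Swiss Webster libraries of E14.5 and at 392 to 1436 CPM at E17.5 version 2. These clusters did not overlap between E14.5 and the other stages, but lay closer together than the class levels, and the difference among them was not tested. The size of the changes given for the class thus includes which clusters were named.

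From E12.5 to E14.5, 2 of 7 granins were called in alpha-like cells against 3.25% of the 9177 genes tested (1.82% higher, 1.43% lower), the other being *Scg2* at 1.13 ± 0.33 (edgeR adjusted p = 0.0387). *Scg2* was still called without E14.5 version 1 batch 1, but not without any of the other 5 libraries (adjusted p = 0.0586 to 0.517) and not by DESeq2. From E14.5 to E17.5, 1 of 7 was called against 0.763% of the same genes (0.414% higher, 0.349% lower). *Chga* differed in alpha-like cells by 0.22 ± 0.35 and then 0.13 ± 0.48 (adjusted p = 0.841 and 0.980).

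In beta-like cells from E14.5 to E17.5 edgeR called 0 of 7 granins, against 0.506% of the 5331 genes tested (0.319% higher, 0.188% lower). An unadjusted p under 0.05 was found for 6 and DESeq2 called 2, but neither share was taken over all genes. *Scg2* was higher by 1.61 ± 0.34 on the log2 scale (adjusted p = 0.0791), *Pcsk1n* was 2.15-fold higher (adjusted p = 0.178) and *Chga* was higher by 1.07 ± 0.40 (adjusted p = 0.334). Without E14.5 version 1 batch 1, E14.5 version 1 batch 2 or E17.5 version 1, *Scg2* was called at 1.71, 1.65 and 2.24 (adjusted p = 0.00748, 0.0304 and 0.00362). The first of these leaves only batch 2 pools in version 1, and batch was not a term of the stage tests. *Scg5* was called without E14.5 version 1 batch 2 (1.73), and *Vgf* without that library (2.51) or without E17.5 version 1 (3.07). *Chgb* was at −0.81 ± 0.38 (adjusted p = 0.458). The beta-like class also joined different clusters at each stage. At E14.5 version 2 it held clusters low in insulin (1613 and 28224 CPM) with *Chgb* at 7815 and 5328 CPM, while the cluster low in insulin at E17.5 version 2 (*Chgb* at 3663 CPM) was unnamed and outside the class. The 2 clusters richest in insulin at E14.5 version 2 had *Chgb* at 3143 and 1820 CPM, within or below the 2004 to 4792 CPM of the E17.5 version 2 clusters. In Fev+-like cells edgeR likewise called 0 of 5, against 0.323% of the 4645 genes tested (0.215% higher, 0.108% lower). An unadjusted p under 0.05 was found for 2 and DESeq2 called 2, again without a share over all genes. These were *Chgb* and *Pcsk1n*, by edgeR at −1.42 ± 0.46 (adjusted p = 0.430) and 1.59 ± 0.39 (adjusted p = 0.181). Without E14.5 version 1 batch 2 *Pcsk1n* was called at 1.94 (adjusted p = 0.000691). In data simulated for the beta-like comparison, 17% of genes changed 2-fold and 90% of those changed 4-fold were detected.

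Whether the stage change differed between beta-like and alpha-like cells was tested in 4 Swiss Webster libraries, of which 1, version 2, was from E17.5. No spread between E17.5 pools enters this edgeR test, which rests on the spread of E14.5 pools only. It therefore cannot tell stage from the 1 pool of E17.5. The call rule was passed by 4 of 7 granins, against 2.22% of the 9458 genes tested (1.4% higher, 0.825% lower). In these libraries the change was more positive in beta-like cells for *Vgf* (2.08 ± 0.55), *Chgb* (1.78 ± 0.21), *Chga* (1.47 ± 0.18) and *Scg2* (1.11 ± 0.19). *Pcsk1n* gave −0.00 ± 0.17. The classes also differed in cluster make-up between stages. At E14.5 version 2 the alpha-like class joined a cluster of 106 cells (*Gcg* at 3140 and *Chgb* at 7494 CPM) with 1 of 101 cells (75307 and 2914 CPM). At E17.5 version 2 the cluster low in *Gcg* (70 cells, *Chgb* at 3367 CPM) and a cluster low in insulin (142 cells, *Ins1* and *Ins2* at 22335 and *Chgb* at 3663 CPM) were unnamed and outside both classes, and their part in these differences was not tested. Hormone and haemoglobin genes took up 46.2% of UMIs in beta-like and 15.4% in alpha-like cells of the E17.5 library, and with those genes left out of the table the same 4 granins were called. With doublets kept 0 of 7 were called, and without the library block 0 of 7 (adjusted p = 1.00 for the 4 named). Without E14.5 version 2 *Vgf* (1.13) and *Scg2* (0.92) were not called, while *Scg3* (1.01) was. Without E14.5 version 1 batch 1, the only pool of its batch, *Scg3* was called as well (1.03).

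**Figure D5:**
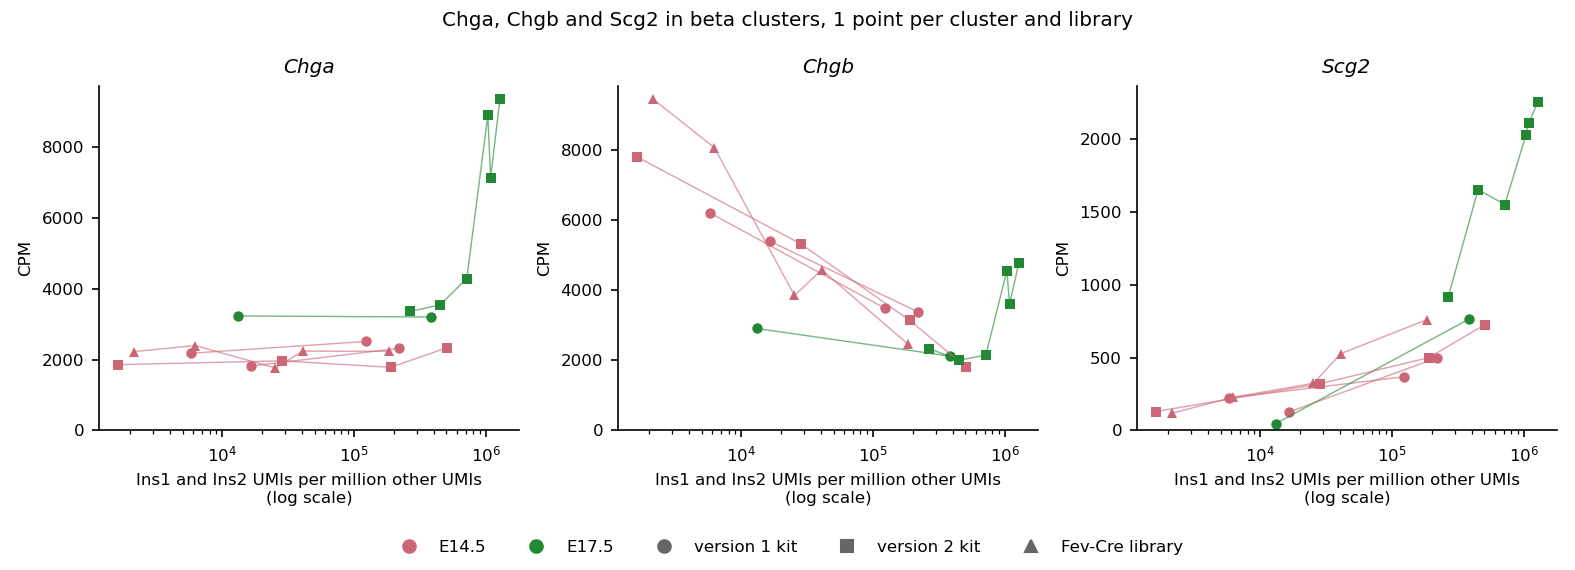
*Chga*, *Chgb* and *Scg2* (CPM, linear axes) in each beta-like cluster against its *Ins1* and *Ins2* UMIs on the same CPM scale (log axis). Points are clusters of at least 20 cells, coloured by stage, shaped by kit or Fev-Cre and joined within a library. In the E14.5 libraries the cluster with the most insulin has the lowest *Chgb* and the highest *Scg2*, and the 3 E17.5 version 2 clusters with the most insulin have the highest *Chga*, 7143 to 9356 CPM, or 3266 to 4193 CPM with insulin kept in the total.

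Clusters within the beta-like class showed how the granins ran with insulin, as a description without a test. In Fev-Cre the cluster with the least insulin (139 cells) had *Chgb* at 9454 CPM and the cluster with the most (148 cells) at 2460 CPM. *Chga* was at 2228 and 2236 CPM and *Scg2* at 118 and 761 CPM in the same clusters. At E14.5 version 2 the corresponding clusters (91 and 52 cells) had *Chgb* at 7815 and 1820 CPM, *Chga* at 1857 and 2333 CPM and *Scg2* at 130 and 726 CPM. At E17.5 version 2 the 3 clusters with the most insulin, whose cells had median UMI counts of 25297 to 34100.5, had *Chga* at 7143 to 9356 CPM, against 3364 to 4293 CPM in the other 3. *Chgb* was at 3609 to 4792 CPM against 2004 to 2337 CPM. Insulin, which is outside the total of these levels, was at 1029280 CPM or more in the first 3 and at 713165 CPM or less in the others. Over all UMIs *Chga* was at 3266 to 4193 CPM against 2353 to 2555 CPM, while *Chgb*, at 1650 to 2144 CPM against 1209 to 1775 CPM, overlapped. The other 3 had median UMI counts of 12495 to 20428.5. The 3 clusters with the most insulin were thus also the 3 deepest, and the part of depth was not tested. At E17.5 version 1 the cluster with the most insulin (54 cells) had *Chga* at 3206, *Chgb* at 2122 and *Scg2* at 763 CPM, and that with the least (28 cells) had 3235, 2910 and 46.4 CPM. At E17.5 version 2 the low end of insulin lay in a cluster that stayed unnamed (142 cells, *Ins1* and *Ins2* at 22335 CPM), with *Chga* at 3863, *Chgb* at 3663 and *Scg2* at 220 CPM. The beta-like cluster with the least insulin there (265985 CPM) had 3364, 2337 and 919 CPM. From low to intermediate insulin *Chgb* was thus lower and *Scg2* higher at E17.5 version 2 as well, and *Chgb* was higher again in the 3 clusters with the most insulin on the scale without hormones.

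*Scg5* differed between libraries of the same stage. In alpha-like cells it was at 348 CPM in E14.5 version 1 batch 1 and 181 CPM in Fev-Cre, but at 1283 and 1033 CPM in E14.5 version 1 batch 2 and version 2. Beta-like cells gave 312 and 168 CPM against 945 and 822 CPM. Neural and glial cells of the same libraries, which also express it, gave 125 and 44.1 CPM against 668 and 504 CPM. Its low values came in the same 2 libraries in endocrine and other cells, and the cause was not tested. The class comparisons above are within libraries.

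*Vgf* was at or under 59.6 CPM in every class. Its highest value was in alpha-like cells of E12.5 version 1, and its Fev+-like values of 8.04 to 38.7 CPM overlapped those of alpha-like, beta-like and delta-like cells. It was the least detected member and passed the filter only in comparisons among hormone classes and stages. None of the *Vgf* differences between hormone classes passed, and the one nearest to it was epsilon-like against alpha-like at −1.77 ± 0.77 (edgeR adjusted p = 0.0955).

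By median level the order of classes differed between members, with ranges of neighbours overlapping for *Chga* throughout. *Chga* ran from Fev+-like (2990 CPM) through beta-like (2329), epsilon-like (2023), *Neurog3*/*Fev* (1273), alpha-like (1231) and delta-like (965) to Ngn3+-like (33.8) and ductal-like cells (4.99). The medians join stages, and classes differ in which libraries they hold. The epsilon-like value joins 716 CPM at E14.5 and 3331 CPM at E17.5 version 2. At E14.5 version 2 it lay below *Neurog3*/*Fev* (1028 CPM) and alpha-like cells (1357 CPM). For each member the most similar genes were sought over 39 sums of class and library, among 6292 genes other than the members, by Pearson's r of log2(CPM + 10). Chga was most like *Pax6* (0.97), *Gnao1* (0.96) and *Rimbp2* (0.94), and Chgb like *Pax6* (0.93), *Entpd3* (0.92) and *Ptbp3* (0.92). Scg3 was most like *Rab3a* (0.98), *Pax6* (0.97) and *Cpe* (0.97), and Pcsk1n like *Cpe* (0.97), *Pax6* (0.96) and *Snap25* (0.96). Scg2 stood with *Iapp* (0.91), *1500009L16Rik* (0.88) and *Ndufa1* (0.88), Scg5 with *1500011B03Rik* (0.95), *Rab3a* (0.93) and *Fam92b* (0.92), and Vgf with *Suox* (0.85), *Ptprn* (0.85) and *Tmod2* (0.83). Among the members themselves r ran from 0.53 for Chgb with Scg2 to 0.98 for Scg3 with Pcsk1n. For Scg3, Scg5 and Pcsk1n the nearest gene was thus another member, with Scg5 and Pcsk1n at 0.95. The sums share libraries and depth, and r here describes these sums only.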

How the data were processed

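Counts of UMIs per gene and cell were used as the authors deposited them. The authors ran Cell Ranger 1.1 on version 1 libraries and 2.1 on version 2, aligning to mm10 with STAR, and added reporter sequences to the reference for the Fev-Cre matrix used here. The matrix of the same library without reporters was not used. Members and lists were chosen with earlier results of these data known. Named genes were the 7 members, the 2 list genes called with the largest fold in each direction per comparison (the text gives a part of these), the convertases, and the 3 genes most like each member.

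Barcodes with at least 200 genes were kept, and 5.53% of cells were removed as doublets, cells with markers of more than 1 tissue compartment (such as endocrine and acinar). Each library was clustered with 2000 variable genes, 20 principal components, 20 neighbours and Leiden (leidenalg 0.10.2, igraph 0.11.9) under Python 3.11.15, numpy 2.4.6, scipy 1.17.1 and scikit-learn 1.9.0. Endocrine and exocrine cells were clustered again, version 1 libraries together and version 2 libraries each alone. Granins and list genes were left out of clustering and naming. A marker counted where it was 1.5-fold above its reference and in at least 10% of a cluster's cells. The reference was all other cells in the first clustering and the median of the other clusters in the second. A name in the second needed at least 3 such markers, its defining gene among them, and no other name above 0.85 of its score. A hormone name also needed its hormone to lead among *Gcg*, *Ins1* with *Ins2*, *Sst* and *Ghrl*.

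UMIs were summed per class and library and tested with edgeR 4.0.16 (TMM scaling, low-count filter, R 4.3.3). Library was a block in class comparisons and kit (version 1 or 2) a term in stage comparisons, and Benjamini-Hochberg adjustment ran over all genes tested. Nothing here separates embryos of a pool, so p-values measure at most the spread between pools. Epsilon-like comparisons have 2 libraries, so their p-values lean on spread shared over genes. With 1 library at E17.5, as for alpha-like cells and the stage change, no spread between E17.5 pools enters. All classes in 1 library were captured from 1 suspension, so they are paired. Deviations from class means correlated at 0.637 to 0.904 between classes of a library, and every library correlated best with its own. Tests were checked on simulated counts. Alternatives were DESeq2 1.42.0, other scaling, no filter, no block or kit term, doublets kept, other clustering, count splitting and each library left out.

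Pseudotime used 15 neighbours and windows of 10% of cells, with no onset where the highest window held under 20 UMIs. Gene positions and exons are from GENCODE M21. Promoter windows are from RefSeq (GRCm38.p6).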

Additional observations from a re-analysis of the deposited data

Results flagged for a closer look

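The change from E14.5 to E17.5 was compared between beta-like and alpha-like cells by an interaction test (edgeR, library as a block, 4 libraries). Only 1 of these libraries is from E17.5, so no spread between E17.5 pools enters the test. *Chga*, *Chgb*, *Scg2* and *Vgf* were flagged because they passed the call rule. Without the block no granin was called, and without E14.5 version 2 *Vgf* and *Scg2* were not, while *Scg3* was. The log2 difference of the changes was 1.47 ± 0.18 (SE) for *Chga*, 1.78 ± 0.21 for *Chgb*, 1.11 ± 0.19 for *Scg2* and 2.08 ± 0.55 for *Vgf*. *Chga* went from 1966 to 5895 CPM in beta-like and from 1357 to 1524 CPM in alpha-like cells of the version 2 libraries. *Chgb* went from 4753 to 3158 CPM in beta-like and from 5001 to 975 CPM in alpha-like cells. The test has 1 library at E17.5, and the classes were made of different clusters at each stage. The E14.5 alpha-like value joins a cluster low in *Gcg* with *Chgb* at 7494 CPM and 1 rich in *Gcg* at 2914 CPM, while at E17.5 a cluster low in *Gcg* (*Chgb* at 3367 CPM) and 1 low in insulin (3663 CPM) were unnamed and left out. With doublets kept the differences were 0.65, 0.68, 0.68 and 1.85, with adjusted p = 0.254, 0.213, 0.387 and 0.149, and the cause was not tested.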

How the results depend on the processing

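Of 1291 values of single granins under the alternatives, 1192 kept their side of the threshold, 56 were no longer called and 43 became called. Where the main or the alternative setting was called, 0 reversed. Values called in neither could change sign, as *Vgf* did between beta-like and alpha-like cells (−0.54 to 0.65 over the settings). RLE scaling and leaving hormone and haemoglobin genes out of the table (chosen after seeing the data) changed none of 98 each. With all UMIs in the total (also chosen after seeing the data), 2 of 49 median levels, those of *Chgb* in delta-like and epsilon-like cells, moved by more than the spread of libraries. Counts of granins called, below, are given where they moved by over 1.5 times.

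Without the replicate block 2 were called for delta-like against Fev+-like cells (4 with it), and 0 for beta-like against alpha-like (1), delta-like against alpha-like (1), delta-like against beta-like (2) and the stage change of beta-like against alpha-like cells (4). The block moved no other count by over 1.5 times, though 16 of 72 single values were no longer called without it, among them *Chga* between Fev+-like and Ngn3+-like cells (adjusted p = 0.0545). Without a filter 5 were called for Ngn3+-like against ductal-like cells, 2 for beta-like against alpha-like, 3 for delta-like against alpha-like, and for E17.5 against E14.5 3 in beta-like and 1 in Fev+-like cells. With finer clustering 2 were called for beta-like against Fev+-like cells, 1 for the beta-like stage comparison and 1 for the stage change. Count splitting gave 2 for beta-like against Fev+-like, 0 for beta-like against alpha-like and 2 for the beta-like stage comparison. Doublets kept gave 2 for alpha-like cells, 1 for beta-like and 1 for Fev+-like cells at E17.5 against E14.5, and 0 for the stage change. No kit term gave 0 in both alpha-like stage comparisons. DESeq2 gave 1 for alpha-like cells from E12.5 to E14.5, 2 and 2 for beta-like and Fev+-like cells from E14.5 to E17.5, and 2 for the stage change. Adding Fev-Cre gave 1 for alpha-like cells from E12.5 to E14.5 and 1 for the beta-like stage comparison. Classes of at least 10 cells (chosen after seeing the data) gave 2 for beta-like against alpha-like, 2 for alpha-like and 1 for Fev+-like cells at E17.5 against E14.5, and 2 for the stage change.

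Leaving out each library in turn, counts ran from 1 to 4 for Ngn3+-like against ductal-like cells (1 without Fev-Cre), 5 to 5 for Fev+-like against Ngn3+-like, 0 to 0 within Fev+-like, 3 to 4 for alpha-like, 2 to 4 for beta-like (2 without E17.5 version 2) and 3 to 4 for delta-like against Fev+-like cells. They ran from 0 to 2 for beta-like against alpha-like (0 without E17.5 version 2), 1 to 3 for delta-like against alpha-like (3 without E17.5 version 2) and 2 to 2 for delta-like against beta-like cells. For stages they ran from 0 to 1 for alpha-like cells at E17.5 against E14.5 (0 without E14.5 version 2) and 1 to 2 at E14.5 against E12.5, and at E17.5 against E14.5 from 0 to 3 for beta-like (3 without E14.5 version 1 batch 2) and 0 to 1 for Fev+-like cells (1 without E14.5 version 1 batch 2). The stage change gave 3 to 5 and was not run without E17.5 version 2, nor were epsilon-like comparisons with 1 library. Fev+-like cells at E14.5 against E12.5 were not compared, since no E12.5 library held 20 of them.

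At 25% of the plateau, median onsets on the alpha-like path were 0.347 for *Chga*, 0.367 for *Scg3* and 0.384 for *Chgb*. Those of *Scg5* and *Pcsk1n* were 0.466 and 0.676, and *Scg3* thus came before *Chgb* there. On the beta-like path the medians were 0.311 for *Chga*, 0.291 for *Chgb*, 0.425 for *Pcsk1n* and 0.533 for *Scg5*. *Scg3* was at 0.541 and *Vgf* at 0.630, so that *Chga* and *Chgb* changed places on that path. With 30 neighbours *Vgf* was at 0.734. Over all UMIs *Chgb* was found in 12.3% of Ngn3+-like and 42.1% of epsilon-like cells at E17.5 version 2.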

Other observations

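The stage change of other list genes was also compared between beta-like and alpha-like cells in the same 4 libraries. Only sizes are given, since 1 library is from E17.5 and its pool cannot be told from stage. *Pcsk1*, the convertase gene that processes proinsulin, gave a log2 difference of changes of 2.26 ± 0.23 (SE, edgeR). *Isl1*, a LIM-homeodomain factor of endocrine cells, gave one of −1.24 ± 0.17. *Rab3b*, a small GTPase of secretory vesicles, gave 1.38 ± 0.34 and *Pcsk2* −0.03 ± 0.16.

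In alpha-like cells *Pcsk1* rose from E12.5 to E14.5 by 1.48 ± 0.35 on the log2 scale (edgeR adjusted p = 0.00701), from a mean of 54.9 to 141 CPM. As for *Chgb*, the alpha-like class held clusters low in *Gcg* at E14.5 that stayed unnamed at E12.5 and E17.5 version 2. From E14.5 to E17.5 *Pcsk1* differed by −0.84 ± 0.41 (adjusted p = 0.585). *Slc30a8* rose from E14.5 to E17.5 in alpha-like cells by 1.81 ± 0.38 (adjusted p = 0.00526), a test with 1 library at E17.5, and in beta-like cells by 2.47 ± 0.25 (adjusted p = 0.00308).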
